A study of Mus musculus with 45 samples.

Results

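Promoters of long non-coding RNAs (lncRNAs) were followed as regions of open chromatin in mouse embryonic stem cells (mESCs) that lost SOX2, OCT4 or NANOG protein within hours. A promoter of this kind was an ATACseq peak whose summit lay within 500 bp of an annotated start of a lincRNA (a lncRNA between genes) or an antisense RNA, and more than 2 kb from any protein-coding start. The rule used position and no fold change, but the peaks themselves had been called on merged libraries that include depleted cells. Of 184964 peaks, 2042 met the rule. They stood at starts of 1950 genes, of which 79 had more than 1 such peak, and the nearest start was a lincRNA in 1419 and an antisense RNA in 623. Peaks at Platr genes (9) were left out. The other peaks they were set beside were 16085 peaks at protein-coding starts and 142423 distal peaks more than 2 kb from every annotated start.

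The cells carried an FKBP degron tag on SOX2, OCT4 or NANOG, so that the tagged protein was removed by 500 nM dTAG-13, a compound that brings FKBP-tagged proteins to the degradation machinery. The controls (NT) of each line carried the same tag and received DMSO. SOX2-FKBP cells were sampled at NT and after 0.5, 1, 2, 6 and 24 h, and OCT4-FKBP and NANOG-FKBP cells at NT and after 2, 6 and 24 h. Each group had 2 libraries, except the treated NANOG-FKBP groups with 3. SOX2-FKBP and NANOG-FKBP were labelled E14 and OCT4-FKBP was labelled V6.5, so a difference between SOX2 and OCT4 depletion cannot be told apart from a difference between these parental lines. All lines grew without serum, with LIF and inhibitors of MEK and GSK3. ATACseq reports how often a transposase inserts into open DNA. It does not report whether the lncRNA was transcribed, and in bulk cells a smaller share of cells with an open region and a less open region per cell cannot be told apart.

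LncRNAs are transcribed mostly by RNA polymerase II and do not encode proteins. Some act on chromatin near their own locus, as the RNAs of imprinting and X inactivation do, others host small nucleolar RNAs or microRNAs in their transcript, and many have no known role. In mESCs, SOX2 and OCT4 bind DNA side by side, together with NANOG, mostly at distal regulatory elements that carry SOX and POU motifs, whereas promoters of broadly expressed genes often lie in CpG-rich DNA that stays open with little need for these factors.

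The following 200 bases around the peak summit are shown for 7 promoters on which the results turn, as the plus strand of mm10 from 5′ to 3′. Capitals mark every match, on either strand, to the motif letters that were searched: CATTGT or CTTTGT (SOX), ATGCNAAT (POU), CCGGAAG (ETS), CCAAT (NFY), GGGTGTG or GGGCGGG (KLF). Lower case carries no meaning about repeats. The first 4 promoters lost accessibility after SOX2 and after OCT4 depletion and hold a SOX or a POU match.
Gm33958 (chr13:44391038-44391237, 1 SOX match): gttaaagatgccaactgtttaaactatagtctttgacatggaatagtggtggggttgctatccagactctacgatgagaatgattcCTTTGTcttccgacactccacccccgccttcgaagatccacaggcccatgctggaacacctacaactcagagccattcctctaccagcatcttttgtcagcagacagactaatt
Gm43293 (chr6:31707364-31707563, 1 SOX match): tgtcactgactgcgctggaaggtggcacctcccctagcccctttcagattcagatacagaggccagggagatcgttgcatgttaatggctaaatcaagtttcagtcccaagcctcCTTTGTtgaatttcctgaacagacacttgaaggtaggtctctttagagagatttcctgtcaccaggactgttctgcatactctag
Gm49162 (chr15:19395748-19395947, 1 POU match): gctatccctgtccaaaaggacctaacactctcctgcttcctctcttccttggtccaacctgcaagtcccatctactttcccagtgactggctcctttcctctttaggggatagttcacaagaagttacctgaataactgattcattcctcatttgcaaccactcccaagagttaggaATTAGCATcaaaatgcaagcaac
4930543E12Rik (chr7:113142221-113142420, 2 SOX matches and 1 NFY match): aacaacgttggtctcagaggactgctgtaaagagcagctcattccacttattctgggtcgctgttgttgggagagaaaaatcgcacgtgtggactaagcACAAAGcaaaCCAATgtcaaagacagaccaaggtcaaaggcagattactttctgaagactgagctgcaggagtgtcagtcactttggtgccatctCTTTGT
The next promoter also lost accessibility after both depletions and holds neither match in this window.
Gm20609 (chr10:71310387-71310586, no match): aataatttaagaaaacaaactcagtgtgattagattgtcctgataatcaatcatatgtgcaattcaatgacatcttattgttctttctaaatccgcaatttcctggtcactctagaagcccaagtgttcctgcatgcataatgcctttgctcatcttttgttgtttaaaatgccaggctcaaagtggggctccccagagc
The last 2 moved in opposite directions between lines, and no searched motif was found in their windows.
E230034D01Rik (chr9:43993743-43993942): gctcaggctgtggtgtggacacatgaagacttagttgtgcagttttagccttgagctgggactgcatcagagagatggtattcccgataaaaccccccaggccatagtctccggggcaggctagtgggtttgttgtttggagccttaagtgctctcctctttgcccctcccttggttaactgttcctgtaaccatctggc
Gm47392 (chr10:44731002-44731201): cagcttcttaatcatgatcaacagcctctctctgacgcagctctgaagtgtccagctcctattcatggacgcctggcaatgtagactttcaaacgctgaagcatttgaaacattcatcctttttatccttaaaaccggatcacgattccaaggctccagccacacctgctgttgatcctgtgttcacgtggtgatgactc
A match is a description of letters and not evidence of binding, and the absence of a match refers only to these letters in this window.

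The 31 libraries held between 1817191 and 17575631 fragments counted in peaks (median 9496229), of which 1.29 to 1.63% fell in lncRNA promoters. The 3 treated NANOG-FKBP libraries of replicate 2 were shallow (1817191 to 3272168 counts), and 13.2 to 17.6% of their counts were mitochondrial, against 1.42 to 6.65% in the other 28. Among markers of cell identity, 6 of 7 mESC genes had a peak at their start, with 45.1 to 364 normalized counts per kb in SOX2-FKBP NT cells (median 168), whereas no summit lay within 500 bp of the Pou5f1 start. Peaks at starts of 3 of 4 primitive endoderm genes reached 32.9 to 90.6, of 4 of 4 trophectoderm genes 39.6 to 67, of 2 of 2 mesoderm genes 27.9 to 77.9 and of 2 of 3 neural genes 58.1 to 69.7 counts per kb. Of 3 fibroblast genes only Postn had a peak, at 37.3. In OCT4-FKBP NT cells, Sox1, Eomes, Sox17 and Cdx2 had 140, 137, 134 and 126 counts per kb, against 130 at Sox2 and 45.4 at Esrrb. Klf4, Tfcp2l1, Nanog and Zfp42 had 151, 179, 400 and 485. In NANOG-FKBP NT cells Sox17 had 136 and Sox2 126. Several lineage starts were thus as open as some mESC starts in these lines.

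In NT cells, the accessibility of lncRNA promoters was nearer to that of distal peaks than to that of protein-coding promoters. In SOX2-FKBP NT cells their median was 45.8 normalized counts per kb of peak, against 42.6 for all peaks, 95.3 for protein-coding promoters and 40 for distal peaks. In OCT4-FKBP NT cells the medians were 42.2, 36.6, 106 and 32.7, and in NANOG-FKBP NT cells 42.6, 37.1, 104 and 34, in the same order. The lncRNA promoter peaks were wider than the average peak, with a median of 808.5 bp against 636 bp, and their summits lay a median of 139 bp from the annotated start. Protein-coding transcripts overlapped 25.7% of them, against 54.7% of all peaks.

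Their sequence showed the same position between the other classes. CpG-rich DNA (a GC content of at least 50% and at least 0.6 of the CpG dinucleotides that base composition predicts, over 500 bp) was found at 251 lncRNA promoters (12.3%), against 7.88% of all peaks, 64.3% of protein-coding promoters and 1.55% of distal peaks. CpG-rich lncRNA promoters had a median of 71.8 normalized counts per kb in SOX2-FKBP NT cells and the others 44.1. Repeats covered at least 50% of the 200 bases in 7.98% of lncRNA promoters and in 14.6% of all peaks. A SOX match was present in 24.6% (25.5% of all peaks), a POU match in 4.02% (3.69%), an NFY match in 24.9% (22.3%), a KLF match in 16.8% (15.9%) and an ETS match in 5.24% (2.95%). The joined SOX and POU element (TTGT, any base, then ATGCNAA), which can overlap a SOX or a POU match, was present in 3 lncRNA promoters, 0.147% against 0.19% of all peaks.

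At 2 h of SOX2 depletion, more lncRNA promoters were called lost than gained. A promoter was called lost or gained where its accessibility was lower or higher than in NT cells at an adjusted p below 0.05 (edgeR quasi-likelihood test, Benjamini-Hochberg adjustment over all peaks tested). Of 2042 promoters, 1861 had enough counts to be tested in the SOX2 time series (181 did not). At 2 h, 90 of them (4.84%) were lost and 24 (1.29%) gained, against 7.28% and 1.46% of all 160432 peaks. Losses were more frequent than at protein-coding promoters (1.29%) and less frequent than at distal peaks (8.42%); these shares were not tested against each other. The median log2 fold change over all tested lncRNA promoters was 0.05, against 0.01 over all peaks. At an unadjusted p below 0.05 in the same test, 150 were lower and 149 higher, against 19063 and 10633 of all peaks. The excess of losses at lncRNA promoters was thus not seen at that threshold. The lost promoters had a median log2 fold change of −1.1 (range −2.86 to −0.49). When libraries were scaled to their total counts, which moved the median of all peaks to 0.10, the counts were 77 lost and 56 gained, so that 42.1% of calls were gains instead of 21.1%. Same-numbered libraries deviated together in this line, and with the replicate as a block 117 promoters were lost and 83 gained. Without SOX2-FKBP NT replicate 1, NT replicate 2 or 2 h replicate 1, respectively, 52, 56 and 55 promoters were lost and 8, 8 and 7 gained.

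**Figure D1:**
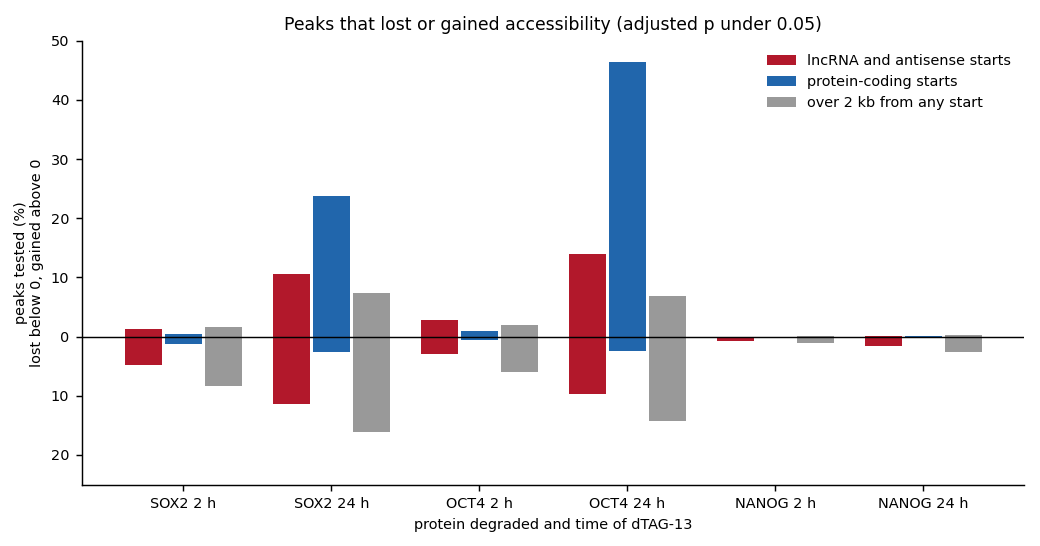
Percent of tested peaks lost or gained 2 h and 24 h post depletion of SOX2, OCT4 and NANOG, for lncRNA promoters, protein-coding promoters and distal peaks. At 24 h post OCT4 depletion 14% of lncRNA promoters and 46.4% of protein-coding promoters are gained, whereas 14.2% of distal peaks are lost. All shares are from the edgeR fits with all libraries.

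The 5 lncRNA promoters with the largest loss at 2 h, among those whose higher group averaged 50 or more normalized counts, belonged to Gm14820, Gm20609, Gm43293, Gm49162 and Gm44969. They were picked among called promoters whose groups did not overlap, as were the further promoters named as largest, so that this property is no result about them. The Gm14820 promoter (antisense) had 131.1 and 178.4 normalized counts in NT and 24.5 and 29.8 at 2 h, a log2 fold change of −2.47 (SE 0.23, adjusted p = 7.93e-10). It already held 61.7 ± 7.79 (SD, n = 2) counts at 0.5 h, a log2 fold change of −1.33 (SE 0.22, adjusted p = 0.00012). It kept falling to 14.6 and 18.9 at 24 h, a log2 fold change of −3.18 (SE 0.26, adjusted p = 6.68e-12). The loss was thus partial at the first time point and deepest at the last. The Gm20609 promoter (lincRNA, chr10:71310127-71310662) had 46.9 and 55.2 counts in NT and 7.5 and 13.3 at 2 h, with a log2 fold change of −2.24 (SE 0.35, adjusted p = 9.13e-06). The Gm43293 promoter (lincRNA, chr6:31706712-31707720), 143.5 kb from the start of Podxl, had 81.6 and 60.9 in NT and 16 and 15.7 at 2 h, with a log2 fold change of −2.19 (SE 0.27, adjusted p = 1.89e-07). Both were called lost from 0.5 h on (adjusted p = 0.0161 and 0.00281).

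Gm49162 (lincRNA, chr15:19395335-19396268) lies far from protein-coding genes, 575.5 kb from the start of Cdh10. Its promoter had 54.7 and 53.8 normalized counts in NT and 16 and 10.8 at 2 h, a log2 fold change of −2.02 (SE 0.33, adjusted p = 2.04e-05). The Gm44969 promoter (lincRNA, chr7:47143957-47144742) had 87.7 and 93.4 in NT, 17.9 and 26.5 at 2 h and 15.5 and 6.6 at 24 h, a log2 fold change of −2.0 (SE 0.26, adjusted p = 3.22e-07) and then of −3.02 (SE 0.30, adjusted p = 4.85e-10). Of the SOX2 time series, Gm33958 (lincRNA, chr13:44390780-44391489, 21 bp from the annotated start) had the largest loss at 24 h. Its promoter went from 61.6 and 63.7 in NT to 16 and 19.1 at 2 h and to 5.8 and 5.7 at 24 h. The log2 fold change was −1.69 at 0.5 h (adjusted p = 0.00015), −1.82 at 2 h (adjusted p = 4.09e-06) and −3.42 at 24 h (SE 0.34, adjusted p = 5.73e-10).

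Gains at 2 h were smaller than losses, with a median log2 fold change of 0.93 over the 24. The largest among well-covered promoters was at 1600010M07Rik, an antisense RNA (chr7:110006376-110007216), with 60.8 and 48.1 normalized counts in NT and 114.1 and 106.1 at 2 h, a log2 fold change of 0.99 (SE 0.21, adjusted p = 0.000998). This gain was not called at 24 h (76.7 and 65.2 counts, adjusted p = 0.274). Gm43661 followed the same course, with 59.9 and 53.8 in NT, 106.6 and 103.6 at 2 h and 67.0 and 50 at 24 h. Its gain at 2 h (0.87, adjusted p = 0.0025) lost its call without SOX2-FKBP NT replicate 2 (0.79). Gm30015 went from 62.5 and 52.4 to 128.3 and 97.8 at 2 h and 114.5 and 98.2 at 24 h, but its call at 2 h (0.95) was lost without NT replicate 2 or 2 h replicate 1 (0.73 to 0.83). The gains of 1700029M20Rik (0.92) and Gm10637 (0.83) at 2 h also lost their calls, to 0.65 to 0.79 without NT replicate 1 or 2 h replicate 2 and to 0.54 to 0.85 without NT replicate 1, NT replicate 2 or 2 h replicate 1, respectively.

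By 24 h of SOX2 depletion, many lncRNA promoters had opened as well as closed. The counts were 212 lost (11.4%) and 196 gained (10.5%), against 14.1% and 9.17% of all peaks. Protein-coding promoters were mostly gained (23.8% gained, 2.66% lost) and distal peaks mostly lost (16.1% lost, 7.35% gained), so that the lncRNA promoters stood between both classes. The lost promoters had a median log2 fold change of −1.21 and the gained ones 0.88. The median over all tested lncRNA promoters was 0.10, against 0.04 over all peaks. The near balance did not hold under every setting. DESeq2 gave 133 lost and 73 gained, the replicate block 264 and 304, and leaving out NT replicate 1, NT replicate 2 or 24 h replicate 1 gave 151 and 87, 154 and 91, and 161 and 130, respectively. Losses were more frequent among lincRNA than antisense promoters, 12.7 against 8.54% at 24 h and 5.44 against 3.48% at 2 h. They were also more frequent outside protein-coding transcripts than inside them, 5.72 against 2.29% at 2 h. These shares are counts and were not tested against each other.

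The largest gain at 24 h was at Lncbate1, named for a lncRNA of brown adipose tissue. Its promoter (chr8:108584513-108585726) lies inside a protein-coding transcript and 118.3 kb from the nearest protein-coding start, Zfhx3. It had 8.7 and 12.7 normalized counts in NT, 27.3 and 30.7 at 2 h and 62.1 and 70.8 at 24 h. The log2 fold change at 24 h was 2.68 (SE 0.30, adjusted p = 9.19e-09), a rise of 6.41 times. Every treated library from 2 h on was above both NT libraries, although the call at 2 h (1.49, adjusted p = 0.00274) was lost without NT replicate 1 (1.18). At C230062I16Rik (antisense, chr7:29956260-29956599) the rise came late, from 30.4 and 31.1 in NT and 33.0 and 35.6 at 2 h to 119.4 and 72.7 at 24 h (log2 fold change 1.64, SE 0.25, adjusted p = 4.13e-06). Gm13816 rose from 52.1 and 42.5 to 136.8 and 112.4 at 24 h (1.37, adjusted p = 1.42e-05). 4933413J09Rik went from 37.3 and 26.9 to 104.8 and 74.6 (1.43), and AC166102.1 from 41.7 and 48.1 to 119.4 and 95.4 (1.27). None of the latter 4 was called at 2 h.

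**Figure D2:**
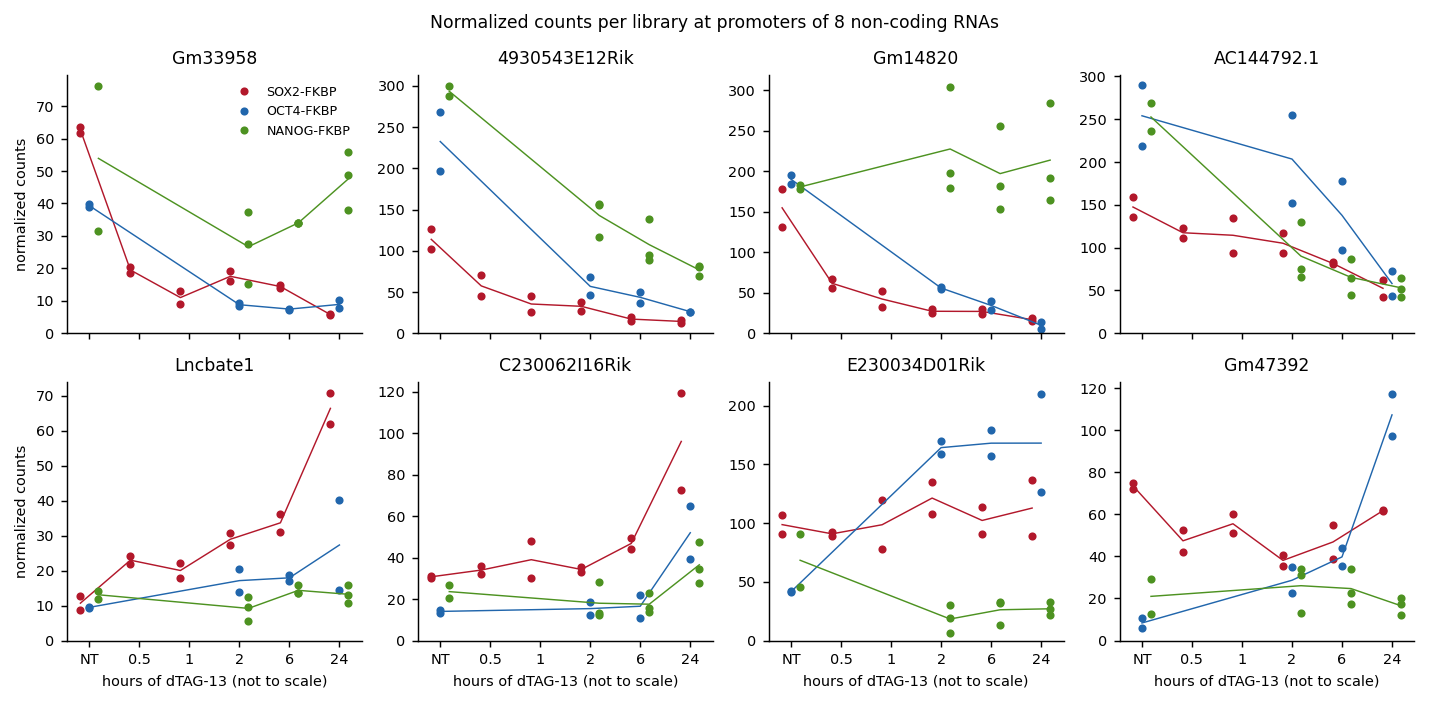
Normalized ATACseq counts of each library (points) and group means (lines) at 8 lncRNA promoters, by hours of dTAG-13 and by line. The time axis is not to scale, and SOX2-FKBP values come from a separate normalization. Gm33958 and 4930543E12Rik are lower than NT from 0.5 h of SOX2 depletion on, Lncbate1 and C230062I16Rik are highest at 24 h of SOX2 depletion, and E230034D01Rik and Gm47392 rise in OCT4-FKBP cells.

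After 2 h of OCT4 depletion, about as many lncRNA promoters were called lost as gained, but the balance changed with the setting. In the fit of all 3 lines, 1909 of the 2042 lncRNA promoters were tested and 133 were not. At 2 h, 56 (2.93%) were lost and 53 (2.78%) gained, against 5.10% and 1.92% of all 166430 peaks, 0.569% and 0.879% of protein-coding promoters and 5.98% and 2.03% of distal peaks. The median log2 fold change was 0.09 over all tested lncRNA promoters and 0.02 over all peaks. Lost promoters had a median log2 fold change of −1.34 and gained ones of 1.06. Scaled to total counts there were 51 losses and 36 gains, and gains were 41.4% of calls, close to the 42.1% after SOX2 depletion under that scaling; the balance was not tested between the lines. Same-numbered libraries deviated together in this line too, and the block gave 95 lost and 150 gained. Single libraries weighed on these counts: without NT replicate 2, 2 h replicate 1 or 2 h replicate 2, respectively, 35, 32 and 26 promoters were lost, and without NT replicate 1, NT replicate 2 or 2 h replicate 1, 22, 32 and 19 were gained.

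Of the 5 largest losses at 2 h of OCT4 depletion among promoters that passed the same limit of 50 counts and whose libraries did not overlap, Gm20609 and Gm49162 were also among the 5 largest at 2 h of SOX2 depletion. The Gm49162 promoter, which holds a POU match, had 107.6 and 121.8 normalized counts in OCT4-FKBP NT cells and 16.5 and 13.7 at 2 h, a log2 fold change of −2.93 (SE 0.35, adjusted p = 1.98e-07). At 24 h it had 11.6 and 1.5, a log2 fold change of −4.07 (SE 0.46, adjusted p = 1.33e-08). The Gm20609 promoter had 64.7 and 112.7 in NT, 12.9 and 14.3 at 2 h (−2.70, SE 0.36) and 4.3 and 6.2 at 24 h (−4.07, SE 0.50). The promoter of 4930543E12Rik (lincRNA, chr7:113141791-113142876), 65.14 kb from the start of the clock gene Arntl, had 196.4 and 268.6 in NT, 45.9 and 67.8 at 2 h and 26.1 and 26.3 at 24 h. The log2 fold changes were −2.02 (SE 0.24, adjusted p = 1.92e-07) and −3.15 (SE 0.29, adjusted p = 1.92e-10). Gm26883 (lincRNA, inside a protein-coding transcript and 2.303 kb from the start of Tshz2) had 74.8 and 137.2 in NT and 25.7 and 27.4 at 2 h (−2.0). AC131065.2 (lincRNA) had 55.3 and 90.9 in NT and 21.1 and 19.3 at 2 h (−1.87, adjusted p = 0.00029). Gm14820 fell from 184.7 and 195.2 to 56.9 and 54.7 at 2 h and to 5.8 and 13.9 at 24 h, a log2 fold change of −4.27 (SE 0.38, adjusted p = 9.31e-11), the largest loss of any tested lncRNA promoter at that time. Gm34533 had 118.5 and 119.1 in NT and 10.1 and 10.8 at 24 h (−3.49, adjusted p = 2.08e-08); its call at 2 h (−1.27) was lost without 2 h replicate 2 (−1.24). Gm43293, lost after SOX2 depletion, was also called lost after OCT4 depletion at 2 h (−2.02) and 24 h (−1.56), but not without NT replicate 2 at 2 h (−1.41) and not without NT replicate 2 or 24 h replicate 1 at 24 h (−1.26 to −0.98).

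The largest gain at 2 h of OCT4 depletion, among promoters whose higher group averaged 50 or more normalized counts, was at E230034D01Rik (lincRNA, chr9:43993169-43994265, 49.54 kb from the start of Thy1), from 41.3 and 42.0 normalized counts to 169.9 and 158.6. The log2 fold change was 1.97 (SE 0.29, adjusted p = 4.81e-06) at 2 h and 2.01 (SE 0.29, adjusted p = 1.76e-06) at 24 h, when the libraries held 126.1 and 210.1. The promoter of Gm28884, an antisense RNA, went from 22.6 and 17 to 50.5 and 62.8 at 2 h, 136.8 ± 25.5 (SD, n = 2) at 6 h and 158.0 and 115.9 at 24 h (2.81, SE 0.34, adjusted p = 5.59e-08). Its call at 2 h (1.54) was lost without NT replicate 2 or 2 h replicate 2 (1.34 to 1.39). Gains at 4930455G09Rik (1.28), Ppp2r2cos (1.23) and Gm43001 (1.23) completed the 5 largest of these at 2 h, and each of these calls depended on single libraries. Without 2 h replicate 1, 4930455G09Rik had 0.64. Without NT replicate 1, NT replicate 2 or 2 h replicate 2, Ppp2r2cos had 1.01 to 1.39 and Gm43001 1.1 to 1.43. The gain of Ppp2r2cos was not called at 24 h (adjusted p = 0.784).

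By 24 h of OCT4 depletion gains outnumbered losses at lncRNA promoters. There were 186 lost (9.74%) and 268 gained (14%), against 12.7% and 10.8% of all peaks. Of protein-coding promoters 2.46% were lost and 46.4% gained, and of distal peaks 14.2% and 6.88%. These shares come from the same fit and scaling, and are given for that setting alone. Scaled to total counts, which moved the median of all peaks to −0.14, lncRNA promoters had 211 losses and 186 gains, so that gains were 46.9% of calls instead of 59%. Without 24 h replicate 1, 120 were lost and 127 gained, and without NT replicate 1 or NT replicate 2, 171 and 146 were gained. The median of gained promoters was 1.05 and of lost ones −1.41. The largest gain was at Gm47392 (lincRNA, chr10:44730595-44731485, 272.4 kb from the start of Prdm1), from 10.9 and 5.8 to 34.9 and 22.4 at 2 h and 97.1 and 117.4 at 24 h. Its log2 fold change at 24 h was 3.72 (SE 0.37, adjusted p = 7.2e-10), whereas the call at 2 h (1.79) was lost without NT replicate 2 or 2 h replicate 1 (1.36 to 1.46). Gm26608 rose from 12.5 and 9.0 to 89.9 and 118.9 at 24 h (3.29), Gm12290 from 7.8 and 9.0 to 56.5 and 60.2 (2.76) and Gm4675 from 37.4 and 17 to 139.2 and 208.5 (2.72). All 4 were low in NT and kept their call at 24 h when any single library was left out.

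CpG-rich lncRNA promoters were gained late and more often than the others after OCT4 depletion. At 24 h of OCT4 depletion, 83 of 251 (33.1%) were gained and 1 lost, whereas of 1658 other lncRNA promoters 185 (11.2%) were gained and 185 lost. In the same fit and scaling, the shares gained over all peaks were 49.8% of CpG-rich and 7.15% of other peaks. The count was sensitive to single libraries and to scaling. Without OCT4-FKBP 24 h replicate 1 it was 23 (9.16%), without NT replicate 1 it was 47 and without NT replicate 2 it was 38. It was 59 with total counts, 97 with DESeq2 size factors and 117 with the replicate as a block. At 2 h hardly any CpG-rich lncRNA promoter had moved. After OCT4 depletion 1 was lost and 0 gained of 251 (9 higher at an unadjusted p below 0.05, 0 gained by DESeq2), and after SOX2 depletion 1 was lost and 0 gained of 246 (3 higher at an unadjusted p below 0.05, 0 gained by DESeq2). By 24 h of SOX2 depletion, 5 were lost and 26 gained (10.6%), against 10.5% of the other lncRNA promoters and 23.1% of all CpG-rich peaks. At this threshold the higher share seen after OCT4 depletion was thus not seen at lncRNA promoters after SOX2 depletion. At an unadjusted p below 0.05, however, 64 of 246 CpG-rich and 284 of 1615 other lncRNA promoters were higher. The median log2 fold changes over all tested were 0.20 and 0.07. DESeq2 gave 10 and 63 gains.

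Losses at 2 h were more frequent at promoters with SOX or POU matches, and not for the depleted factor's motif alone. After SOX2 depletion, 46 of 452 tested lncRNA promoters with a SOX match were lost (10.2%) and 44 of 1409 without one (3.12%), compared with 15 and 4.72% of all peaks. The order held in each leave-one-out fit, with 29 to 33 and 23 to 32 losses, respectively. Without NT replicate 1 there were 29 with and 23 without a match, without NT replicate 2 there were 24 without a match and without 2 h replicate 1 there were 23. DESeq2 gave 25 and 22. After OCT4 depletion, 14 of 79 with a POU match were lost (17.7%) and 42 of 1830 without (2.3%), compared with 27.1 and 4.24% of all peaks. Leaving out 1 library gave 5 to 10 losses among the 79, with 10, 9, 8 and 5 without NT replicate 1, NT replicate 2, 2 h replicate 1 and 2 h replicate 2, respectively, and among the 1830 gave 26, 24 and 21 without the last 3 of these. After SOX2 depletion, promoters with a POU match were lost in 9 of 79 cases (11.4%), against 4.55% of those without. Over all peaks these shares were 19.6 and 6.79%. After OCT4 depletion 4.02% of promoters with a SOX match and 2.58% of those without were lost, compared with 8.45 and 3.95% of all peaks. By DESeq2 the losses were 6 of 79 and 41 of 1782 in the first case. In the second they were 11 of 473 and 27 of 1436, which is a small difference. Gains at 2 h of OCT4 depletion were also more frequent with a SOX match. They were 15 of 473 (3.17%) against 38 of 1436 without one (2.65%), and 2.68 against 1.66% of all peaks. These shares were not tested against each other. A match was neither required nor enough for a loss. Of the 90 promoters lost at 2 h of SOX2 depletion, 51.1% held a SOX match, as did 51.3% of all lost peaks, and the large loss at Gm20609 came without one. Repeat-covered lncRNA promoters were lost in 14 of 138 cases (10.1%) at 2 h of SOX2 depletion, compared with 4.41% of the others and with 14% of all repeat-covered peaks.

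**Figure D3:**
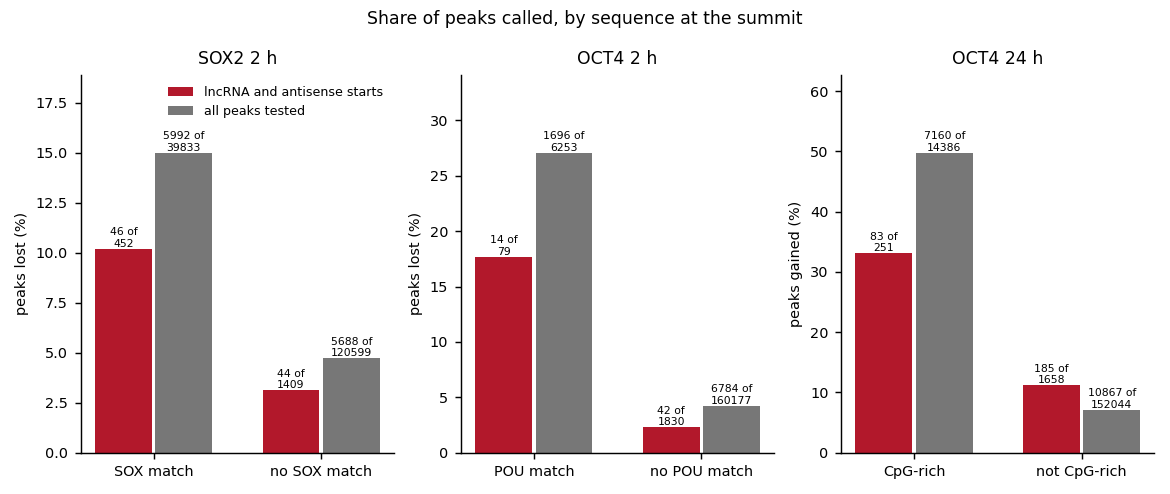
Percent of tested peaks lost at 2 h of SOX2 depletion with and without a SOX match, lost at 2 h of OCT4 depletion with and without a POU match, and gained at 24 h of OCT4 depletion in CpG-rich and other DNA, for lncRNA promoters (red) and all peaks tested (grey), with the counts above each bar. In each panel the left pair of bars is the higher one, with 10.2% against 3.12% of lncRNA promoters in the SOX panel, 17.7% against 2.3% in the POU panel and 33.1% against 11.2% in the CpG panel.

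NANOG depletion changed few lncRNA promoters. At 2 h, 15 of 1909 (0.786%) were lost and 0 gained, against 0.938% and 0.0162% of all peaks. By DESeq2 the counts were 10 and 0, and at an unadjusted p below 0.05, 66 promoters were lower and 31 higher. At 24 h, 30 (1.57%) were lost and 3 (0.157%) gained, against 2.25% and 0.288% of all peaks. The shares lost at 2 h and 24 h were 0.0822 and 0.278% of protein-coding promoters and 1.09 and 2.61% of distal peaks. Without the 3 shallow libraries, an alternative added after the data were seen, 11 were lost and 0 gained at 2 h and 31 were lost and 4 gained at 24 h. Losses at 2 h numbered 2 without NT replicate 1, 9 without NT replicate 2, 6 without 2 h replicate 1 and 8 without 2 h replicate 3. At 24 h there were 13, 15 and 14 losses without NT replicate 1, 24 h replicate 1 and 24 h replicate 3, and 0, 0, 0 and 1 gains without NT replicate 1, NT replicate 2, 24 h replicate 1 and 24 h replicate 3, respectively.

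The largest loss at 24 h of NANOG depletion was at AC144792.1 (antisense, chr19:42409069-42410802, inside a protein-coding transcript and 21.76 kb from the nearest protein-coding start, Crtac1), with 236.6 and 268.6 normalized counts in NT, 65.4, 74.5 and 130.3 at 2 h and 42.5, 51.7 and 65.1 at 24 h. The log2 fold change at 24 h was −2.26 (SE 0.30, adjusted p = 3.28e-06), and the call at 2 h (−1.49, adjusted p = 0.00298) was lost without 2 h replicate 1 (−1.22). This promoter was also lost at 24 h, but not called at 2 h, after SOX2 (−1.47) and OCT4 (−2.14) depletion. Gm49427 (lincRNA, chr9:120009511-120009911, inside a protein-coding transcript) had 62.8 and 56.9 in NT, 21.3, 6.2 and 13.2 at 2 h and 14.7, 12.9 and 18.4 at 24 h (−1.91, SE 0.34, adjusted p = 0.000382). It was not called after SOX2 depletion (adjusted p = 0.991 at 2 h and 0.0788 at 24 h) or OCT4 depletion (0.224 and 0.46). Its call at 2 h of NANOG depletion (−1.80) was lost without NT replicate 1 (−1.72).

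4930543E12Rik was called lost in every line and at both times. In NANOG-FKBP cells it went from 299.4 and 287.5 to 116.6, 155.3 and 156.7 at 2 h (−1.08, adjusted p = 0.0056) and to 80.4, 69.0 and 81.1 at 24 h (−1.90, SE 0.23, adjusted p = 5.98e-07), the call at 2 h being lost without NT replicate 1 or 2 h replicate 1 (−1.06 to −0.95). In SOX2-FKBP cells it went from 125.9 and 101.9 to 27.3 and 38.1 at 2 h (−1.80) and to 12.6 and 16.1 at 24 h (−3.0), and it was already called at 0.5 h (−1.07, adjusted p = 0.00408). E330011O21Rik (antisense), Gm45238 and Gm42800 were likewise called lost at both times in all 3 lines, with log2 fold changes at 24 h of −1.66, −1.90 and −1.38 after SOX2, −2.42, −1.71 and −2.20 after OCT4 and −1.38, −1.39 and −1.66 after NANOG depletion. In each of these 3, calls at 2 h of NANOG depletion were lost when NANOG-FKBP NT replicate 1 was left out, with −1.56 at E330011O21Rik and values within −1.54 to −1.06 at Gm45238 and −1.28 to −1.14 at Gm42800, where further single libraries had the same effect (NT replicate 2 and 2 h replicate 1 at both, and 2 h replicate 3 at Gm42800). At 24 h of NANOG depletion the calls were lost at E330011O21Rik without NT replicate 1 (−1.37) and at Gm45238 without NT replicate 2 or 24 h replicate 1 (−1.31 to −0.96). At 2 h of SOX2 depletion they were lost without NT replicate 1, NT replicate 2 or 2 h replicate 1 (−1.09 to −0.85 at E330011O21Rik and −1.34 to −0.77 at Gm45238), and at 2 h of OCT4 depletion at E330011O21Rik without NT replicate 2 or 2 h replicate 1 (−1.21 to −0.83). Gm28888 fell from 86.9 and 120.1 to 27.8, 17.2 and 27 at 24 h (−1.98, adjusted p = 0.0138), a call lost without NT replicate 2, 24 h replicate 1 or 24 h replicate 3 (−2.08 to −1.73). Of the 3 gains only Gm13565 had at least 50 counts, with 41.4 and 50.6 in NT and 97.4, 60.4 and 98.3 at 24 h (0.98, adjusted p = 0.0248), and its call was lost without NT replicate 1, NT replicate 2, 24 h replicate 1 or 24 h replicate 3 (0.84 to 1.12).

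Losses after SOX2 and OCT4 depletion overlapped in part. Of 1828 lncRNA promoters tested in both fits, 29 were lost at 2 h after both depletions, 32.2% of 90 lost after SOX2 and 53.7% of 54 lost after OCT4, compared with 41 and 62.4% of all lost peaks. At 24 h, 99 were lost after both (46.9 and 55%, against 54.9 and 62.8% of all lost peaks) and 80 gained after both (41.7 and 30.4%, against 40.5 and 33%). Gains at 2 h shared 4 promoters (17.4 and 7.55%, against 13.8 and 10.1%). Opposite calls were rare, as they were over all peaks. At 2 h, 3 promoters were lost after SOX2 and gained after OCT4 depletion. They were 3.33% of the promoters lost after SOX2 depletion, against 2.2% for all peaks. At 24 h there were 4 (1.9 against 1.99%). The other way round there were 0 at either time, against 0.92 and 0.794% of all peaks gained after SOX2 depletion at 2 h and 24 h. Lost promoters often had another lost peak nearby: 41 of the 90 lost at 2 h of SOX2 depletion (45.6%) had one within 20 kb, compared with 34.1% of all lost peaks, and at 24 h the shares were 62.3 and 54.5%. After OCT4 depletion they were 26.8 and 24.6% at 2 h and 60.8 and 53.5% at 24 h. Of 70 genes with more than 1 tested promoter peak, 29 had at least 1 call at 24 h of SOX2 depletion, in 5 of which all peaks were called one way and in 1 of which peaks were called both ways. For OCT4 depletion at 24 h these numbers were 33, 4 and 1.

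The response to SOX2 and OCT4 depletion was compared directly by an interaction term in the fit of all 3 lines. At 2 h, 21 of 1909 lncRNA promoters differed (1.1%), against 1.57% of all peaks, and at 24 h 52 differed (2.72%), against 2.77% of all peaks. The SOX2 response was the lower one in 17 of 21 at 2 h and in 37 of 52 at 24 h. In 16 of the 21 the fold change was negative after SOX2 and positive after OCT4 depletion, and in 21 of the 52. These splits were not set beside those of all peaks that differ, so they are not shown to be particular to lncRNA promoters. With the replicate as a block 68 differed at 2 h and 142 at 24 h. Without a single library the count at 2 h was 9, 8, 6 and 9 for SOX2-FKBP NT replicates 1 and 2 and 2 h replicates 1 and 2, and 12 and 13 for OCT4-FKBP NT replicate 1 and 2 h replicate 2. At 24 h it was 24, 30, 30 and 29 for SOX2-FKBP NT replicates 1 and 2 and 24 h replicates 1 and 2.

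By the sign of the fold changes, Gm44969 showed this contrast at 2 h and Gm47392 at both times. Gm47392 was weakly covered in OCT4-FKBP NT cells (10.9 and 5.8 normalized counts). At Gm44969 the log2 fold change at 2 h was −1.94 after SOX2 and 0.60 after OCT4 depletion in this fit. The difference was −2.54 (SE 0.40, adjusted p = 0.000201). At 24 h both were negative (−2.98 and −0.25), with a difference of −2.73 (SE 0.47, adjusted p = 0.000376). Its libraries held 39.0 and 52.6 normalized counts in OCT4-FKBP NT cells and 57.9 and 80.9 at 2 h, a change that was not called (adjusted p = 0.222). At Gm47392 the difference was −2.67 (SE 0.51, adjusted p = 0.00156) at 2 h and −3.93 (SE 0.48, adjusted p = 2.07e-06) at 24 h. In SOX2-FKBP cells this promoter had 72.1 and 75 counts in NT, 40.6 and 35.6 at 2 h (−0.95, adjusted p = 0.00398, a call lost without SOX2-FKBP 2 h replicate 2 at −0.85) and 62.1 and 61.4 at 24 h. E230034D01Rik gained accessibility after OCT4 depletion, was not called after SOX2 depletion (adjusted p = 0.559 at 2 h) and was lost after NANOG depletion, from 90.9 and 45.8 to 29.9, 6.2 and 18.9 at 2 h (−1.54, adjusted p = 0.0137) and 32.5, 21.6 and 27 at 24 h (−1.26, adjusted p = 0.0235). Its NANOG call at 2 h was lost without NT replicate 1 or 2 h replicate 3 (−1.42 to −0.95), and its call at 24 h without NT replicate 1, 24 h replicate 1 or 24 h replicate 3 (−1.44 to −0.66). The difference between the SOX2 and OCT4 responses at this promoter was −1.62 (SE 0.40, adjusted p = 0.0209) at 2 h, and a difference from NANOG was not tested.

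**Figure D4:**
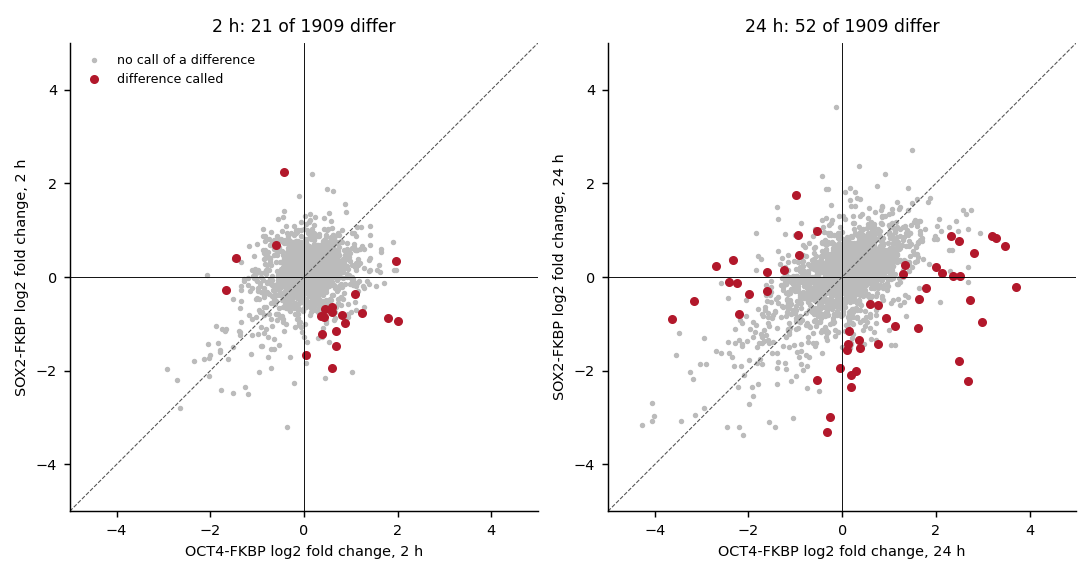
Log2 fold change after OCT4 depletion (x axis) against SOX2 depletion (y axis) of 1909 lncRNA promoters at 2 h and 24 h, in the fit of 3 lines, with promoters whose responses differ at an adjusted p below 0.05 in red (21 and 52). Of the red points, 16 at 2 h and 21 at 24 h lie at the lower right, negative after SOX2 and positive after OCT4 depletion, and the dashed line marks equal change.

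RNAs of imprinting and X inactivation were a chosen list of 13, of which 9 had a promoter peak here (12 peaks). No promoter of the list was called lost by edgeR in any of the 6 comparisons. The shares lost over all peaks were 0.938 to 14.1%, and those of CpG-rich lncRNA promoters 0.398 to 2.03% after SOX2 and OCT4 depletion. At an unadjusted p below 0.05, 1 was lower at 2 h of SOX2 and 2 at 2 h of NANOG depletion. DESeq2 gave 0 losses, but with the replicate as a block 1 was lost at 2 h of SOX2 depletion. At 24 h of OCT4 depletion 4 of 11 tested were gained, against 10.8% of all peaks and 49.8% of CpG-rich peaks (3 of the 12 are CpG-rich), with a list median of 0.51 against −0.01 over all peaks (6 higher and 0 lower at an unadjusted p below 0.05, 3 gained by DESeq2). Without NT replicate 2 or 24 h replicate 1 the gains numbered 2 and 1. Jpx, an activator of X inactivation, went from 15.6 and 25 normalized counts to 63.8 and 72.6 (1.71, SE 0.33, adjusted p = 0.000117). Ftx, another RNA of the X inactivation centre, was gained at 2 of its 3 starts (1.07 and 0.78), and Airn, the antisense RNA that silences Igf2r in imprinting, by 0.71. SOX2 depletion for 24 h gave gains at Airn (0.53) and Ftx (0.85), 2 of 10 tested, against 9.17% of all peaks. Jpx kept its call when any single library was left out. The Airn calls did not, with 0.36 to 0.41 after OCT4 depletion without NT replicate 2 or 24 h replicate 1 and 0.45 to 0.57 after SOX2 depletion without NT replicate 1, NT replicate 2 or 24 h replicate 1. The Ftx calls after OCT4 depletion were lost without 24 h replicate 1 (0.81 at one start) and without NT replicate 1, NT replicate 2 or 24 h replicate 1 (0.50 to 0.94 at the other), and the Ftx call after SOX2 depletion without NT replicate 2 (0.68). Promoters of Kcnq1ot1, Meg3, H19 and Tsix were not called in any comparison in which they were tested. Tsix, the antisense partner of Xist, had means of 78.8 counts in OCT4-FKBP NT cells and 112.2 at 24 h (adjusted p = 0.134).

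Broadly expressed lncRNAs and hosts of small nucleolar RNAs had CpG-rich starts in 15 of 25 promoter peaks, from 15 of 30 listed names. None of 24 tested was called lost by edgeR in any comparison. At an unadjusted p below 0.05, 2 were lower at 24 h of OCT4 depletion, and 0 were lost by DESeq2. Losses were also few among all CpG-rich lncRNA promoters, at 0.398 to 2.03% after SOX2 and OCT4 depletion, against 5.10 to 14.1% of all peaks. The lack of losses is thus not shown to be particular to the list. At 24 h of OCT4 depletion 8 of 24 were gained (9 by DESeq2), with a list median of 0.36 against −0.01 over all peaks. This share lies near that of all CpG-rich lncRNA promoters (33.1%) and below that of all CpG-rich peaks (49.8%), so it is not particular to the list. They were Snhg17 and Snhg5 (0.99 each), Snhg8 (0.86), Lncpint (0.82 and 0.74), Snhg20 (0.73), Dleu2 (0.72) and Snhg12 (0.65). Snhg8, whose transcript hosts a small nucleolar RNA, had 343.0 and 314.3 normalized counts in NT and 645.1 and 545.3 at 24 h. It alone of these kept its call without any single library. Without OCT4-FKBP 24 h replicate 1 the log2 fold change was 0.69 at Snhg17 and 0.75 at Snhg5. Snhg20 (0.43 to 0.75), Dleu2 (0.43 to 0.78) and Snhg12 (0.31 to 0.62) lost their calls without NT replicate 1, NT replicate 2 or 24 h replicate 1, and so did one Lncpint start without any one of the 4 libraries (0.60 to 1.05) and the other without NT replicate 1, 24 h replicate 1 or 24 h replicate 2 (0.49 to 0.74). Without NT replicate 1, NT replicate 2 or 24 h replicate 1, 3, 4 and 1 were gained. Scaled to total counts, 4 were gained and 2 lost, and with the replicate as a block 9 were gained and 3 lost. After 24 h of SOX2 depletion 2 of 24 were gained, against 9.17% of all peaks. They were Snhg20 (0.49) and 1 of 2 peaks at annotated starts of Malat1 (0.84), an abundant RNA of nuclear speckles. That Malat1 peak (chr19:5796332-5796959) had 68.4 counts in NT and 121.9 at 24 h on average. The other Malat1 peak was not called, and neither lies in CpG-rich DNA. The Snhg20 call was lost without NT replicate 1, NT replicate 2 or 24 h replicate 2 (0.37 to 0.52). The Malat1 call was lost without NT replicate 1 (0.78). At 2 h of SOX2 depletion a weakly covered start of Lncpint was called gained (1.72), 1 of 24, against 1.46% of all peaks. Without NT replicate 1 or 2 h replicate 1 it was not called (1.03 to 1.27).

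Of 14 listed microRNA hosts 6 had promoter peaks (10). At 24 h of SOX2 depletion 3 of 9 tested were lost, 1 of them also by DESeq2, against 14.1% of all peaks, and at 24 h of OCT4 depletion 1 of 10 was lost and 1 gained, against 12.7 and 10.8%. Mir124a-1hg, the host of the neuronal microRNA miR-124, had peaks at 2 starts. One of these (chr14:64589203-64590425) fell from 232.3 and 351.0 normalized counts to 58.0 and 69.5 at 24 h of OCT4 depletion (−2.20, SE 0.28, adjusted p = 9.57e-08) and from a mean of 271.1 to 150.6 at 24 h of SOX2 depletion (−0.83, SE 0.16, adjusted p = 0.00018), and both calls held without any single library. At that start the 2 losses differed by the interaction test at 24 h (SOX2 minus OCT4 1.40, SE 0.37, adjusted p = 0.0273). The other start, upstream and CpG-rich, was not called in any comparison (0.28 and 0.23 at 24 h). Mir670hg (−0.72) and Mir124-2hg (−0.71) were also lost after 24 h of SOX2 depletion, but not without single libraries, with −0.62 to −0.58 at Mir670hg without NT replicate 2 or 24 h replicate 1 and −0.77 to −0.52 at Mir124-2hg without NT replicate 1, NT replicate 2 or 24 h replicate 1. Another start of Mir670hg was gained at 24 h of OCT4 depletion (1.58), but not without NT replicate 2 or 24 h replicate 1 (0.96 to 1.21). Of a list of 6 stem cell RNAs only Lncenc1, a lncRNA of naive mESCs, had a promoter peak, and it was not called (0.40, adjusted p = 0.11 at 24 h of SOX2 depletion). Of 39 RNAs beside developmental regulators 9 had peaks (10). Rmst, a neural lncRNA known to bind SOX2, was lost after SOX2 depletion, with a mean of 49.5 counts in NT, 26.5 at 2 h (−0.90, adjusted p = 0.0404) and 19.6 at 24 h (−1.33, adjusted p = 0.00118). Its call at 2 h was lost without any one of the 4 libraries (−0.96 to −0.86). Six3os1 and Hotair were not called. Of 70 promoter peaks of RNAs named as the opposite strand of a protein-coding gene, 66 were tested in the SOX2 series and 68 in the fit of 3 lines. After SOX2, OCT4 and NANOG depletion 1, 2 and 1 were lost at 2 h, against 7.28, 5.10 and 0.938% of all peaks, and 5, 8 and 3 at 24 h, against 14.1, 12.7 and 2.25%. Gains numbered 0, 3 and 0 at 2 h, against 1.46, 1.92 and 0.0162% of all peaks, and 3, 5 and 0 at 24 h, against 9.17, 10.8 and 0.288%. Where edgeR gave 0 gains, 3 were higher at an unadjusted p below 0.05 and 0 gained by DESeq2 in each case.

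**Figure D5:**
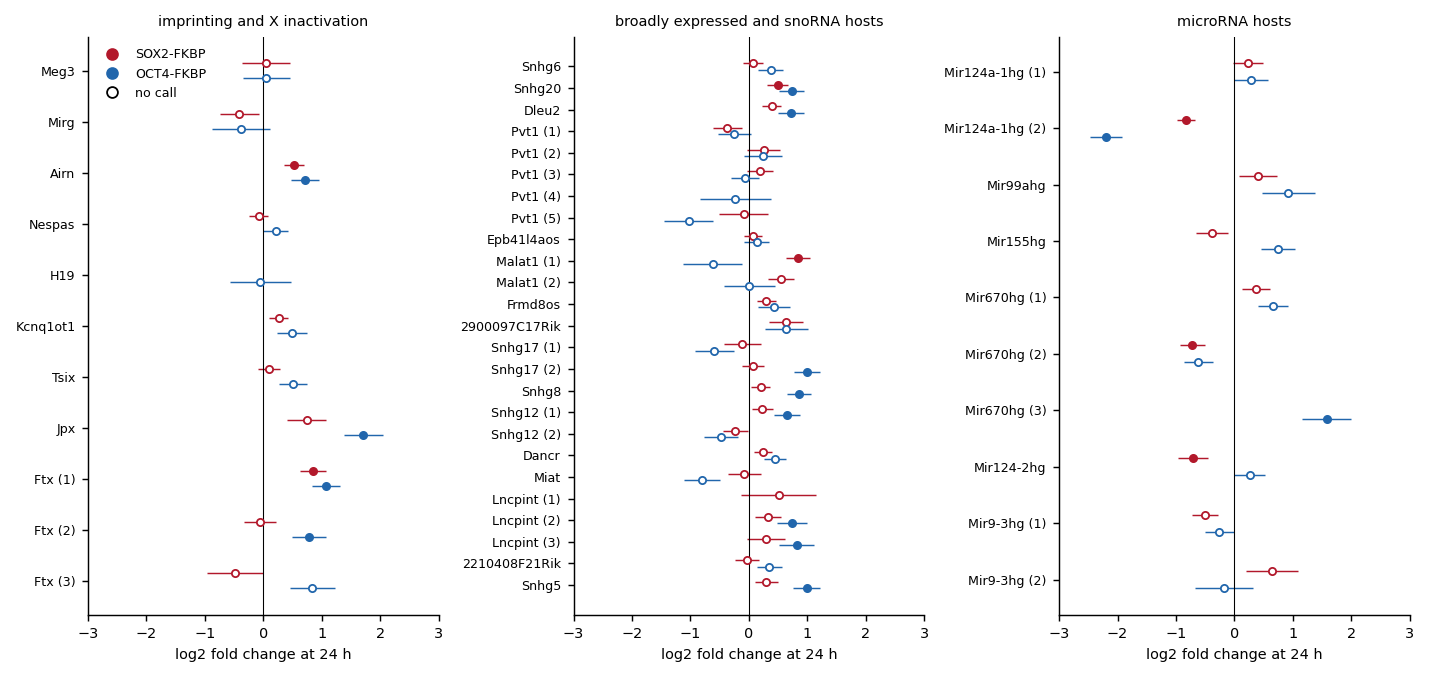
Log2 fold change (points) with its SE (bars) at 24 h of SOX2 and OCT4 depletion for tested promoters of RNAs of imprinting and X inactivation, broadly expressed RNAs and snoRNA hosts, and microRNA hosts, with filled points called at an adjusted p below 0.05. The filled points of the first and second panels lie above 0, and Mir124a-1hg falls to −2.20 after OCT4 depletion.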

How the data were processed

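ATACseq was analysed in 31 libraries of 3 degron lines, and 14 further samples of the 45 in the series (a regulatory element knockout, overexpression and washout experiments) were not analysed here. Per the study's methods, the authors called peaks with MACS2 on merged time series libraries of the degron lines and deposited whole-number fragment counts per peak in each library, with peak positions and summit offsets (other values of the deposited peak list were not used). The submitters' processing notes name BWA 0.7.17-r1188, Picard 2.12.0 and SAMtools 1.10, and the mm10 build. No per-sample column was left unused. Counts on overlapping features are not strand specific, so RNAs that share a region cannot be told apart.

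Summits were matched to GENCODE vM21 transcript starts and sequence to GRCm38 (the build of mm10). The lncRNA promoters, the gene lists and the tests were chosen with earlier results of these data known. Peaks with over 10 counts in over 2 of 12 libraries (SOX2 series) or in over 6 of 27 libraries (3 lines at NT, 2, 6 and 24 h) were kept, which tested 160432 and 166430 peaks. Each was fitted with group means by edgeR 4.0.16 (TMM scaling, quasi-likelihood F test, two-sided, Benjamini-Hochberg adjustment over all peaks kept, threshold 0.05) in R 4.3.3. SOX2 against NT came from the SOX2 series, and OCT4, NANOG and the difference between SOX2 and OCT4 responses from the fit of 3 lines. Standard errors were taken as the log2 fold change over the square root of F. Normalized counts are counts scaled to each fit's mean effective library, so their scales differ between the fits. Scripts were tested on simulated data. Alternatives were DESeq2 1.42.0, its size factors, total counts, no filter on low counts, at least 10 counts in every library, a replicate block with and without GC offsets, and each library left out.

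The named promoters were the 5 with the largest loss and gain per comparison among called peaks whose higher group averaged 50 or more normalized counts and whose groups did not overlap, the members of the gene lists, and the 3 that differed most between SOX2 and OCT4 in each direction at each time. Deviations of same-numbered libraries from their group means correlated at 0.12 to 0.34 in SOX2-FKBP and 0.22 to 0.48 in OCT4-FKBP cells. The main fits nevertheless held no replicate term, so their counts and p-values are unpaired. The replicate entered only as a block among the alternatives. In NANOG-FKBP cells 12 of 15 correlations were over 0.1 (−0.04 to 0.45), so these libraries were not taken as paired. The labels do not say whether replicates are separate cultures, so p-values measure the spread between these libraries, which may be technical. Motif matches, CpG content and repeats were read with Python 3.11.15 (numpy 2.4.6, pandas 2.3.3), and figures drawn with matplotlib 3.10.9.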

Additional observations from a re-analysis of the deposited data

Results flagged for a closer look

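At 11 lncRNA promoters the response to SOX2 depletion differed from that to OCT4 depletion by an interaction test, and these were the 3 that differed most in each direction at each time. The values are SOX2 minus OCT4 log2 fold changes. At 2 h the SOX2 response was lower at Gm30695 (−2.95, SE 0.67, adjusted p = 0.01), Gm47392 (−2.67) and Gm44969 (−2.54). It was higher at Gm29233 (2.66, adjusted p = 0.037), Gm12147 (1.86, adjusted p = 0.0206) and C430039J16Rik (1.39, adjusted p = 0.00541). At Gm12147 the OCT4-FKBP libraries fell from 92.0 and 84.0 normalized counts to 32.1 and 31.7, whereas the SOX2-FKBP libraries held 42.5 and 41.1 in NT and 45.3 and 60.5 at 2 h. C430039J16Rik was also lost after NANOG depletion (−0.88, adjusted p = 0.0122 at 2 h), although not without NANOG-FKBP NT replicate 1, NT replicate 2 or 2 h replicate 1 (−0.93 to −0.83).

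At 24 h the SOX2 response was lower at Gm32975 (−4.91, SE 0.71, adjusted p = 3.48e-05), C530043A13Rik (−4.29, SE 0.43, adjusted p = 8.61e-08) and Gm30695 (−3.94, SE 0.67, adjusted p = 0.000273). At C530043A13Rik the SOX2-FKBP libraries fell from 45.1 and 55.2 to 11.6 and 16.1 normalized counts and the OCT4-FKBP libraries rose from 17.9 and 14.4 to 89.9 and 91.1. Gm32975 had 8.6 and 9.0 counts in OCT4-FKBP NT cells and 47.8 and 68.0 at 24 h, and did not pass the filter of the SOX2 series. The SOX2 response was higher at Gm10479 (2.93, SE 0.53, adjusted p = 0.000591), 2900052N01Rik (2.74, adjusted p = 0.0245) and Gm46332 (2.74, adjusted p = 0.0308). At Gm10479 the OCT4-FKBP libraries fell from 81.8 and 55.8 to 13 and 7.7, and at Gm46332 from 30.4 and 45.2 to 2.9 and 3.1.

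Calls at Gm30695 (2 h), Gm29233, Gm12147, C430039J16Rik, 2900052N01Rik and Gm46332 were lost without single libraries. The values ranged from −2.89 to −2.66 at Gm30695 (SOX2-FKBP 2 h replicate 1, OCT4-FKBP NT replicate 1 or 2 h replicate 2), 2.41 to 2.98 at Gm29233 (any of the 8), 1.64 to 1.90 at Gm12147 (6 of 8, all but SOX2-FKBP 2 h replicate 1 and OCT4-FKBP NT replicate 2) and 1.14 to 1.15 at C430039J16Rik (OCT4-FKBP NT replicate 2 or 2 h replicate 2). They ranged from 2.51 to 2.95 at 2900052N01Rik and 2.38 to 2.86 at Gm46332 (7 of 8 each, all but OCT4-FKBP NT replicate 1). The parental line moves with the target in each of these differences and cannot be told apart from it.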

How the results depend on the processing

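Counts are given as lost and gained lncRNA promoters. With DESeq2, 47 were lost and 4 gained at 2 h of SOX2 depletion, 133 and 73 at 24 h, and 0 gained at 24 h of NANOG depletion. Total counts gave 56 gains at 2 h of SOX2 and 0 at 24 h of NANOG depletion. With at least 10 counts in every library, which leaves fewer promoters to test, 15 were gained at 2 h of SOX2 depletion, 28 lost and 15 gained at 2 h of OCT4, 94 gained at 24 h of OCT4, 5 lost after 2 h of NANOG depletion and, after 24 h, 16 lost and 0 gained, and 9 and 29 differed between SOX2 and OCT4 at 2 and 24 h. With the replicate block, gains were 83 at 2 h and 304 at 24 h of SOX2 depletion, OCT4 depletion gave 95 and 150 at 2 h, NANOG depletion 26 and 6 at 2 h and 53 and 16 at 24 h, and 68 and 142 differed. NANOG-FKBP libraries share only a number, so the block is no paired analysis there. With GC offsets added to the block the values were 68 gains at 2 h of SOX2, 89 and 136 at 2 h of OCT4, 25 and 6 and then 51 and 16 for NANOG depletion, and 76 and 158 that differed. All other counts under these settings, size factors and no filter stayed within 1.5 times. Where a count moved, the cause was not tested.

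With 1 library left out, SOX2 depletion gave 52 to 65 lost and 7 to 21 gained at 2 h and 151 to 165 and 87 to 147 at 24 h. OCT4 depletion gave 26 to 45 and 19 to 42 at 2 h and 120 to 171 and 127 to 244 at 24 h. NANOG depletion gave 2 to 13 and 0 to 1 at 2 h and 13 to 30 and 0 to 3 at 24 h. Between 6 and 21 differed at 2 h and 24 to 43 at 24 h. A lone library left in a group is assumed to vary like the other groups. Of 161 calls at named promoters, DESeq2 kept 130 and lost 27 (4 had no adjusted p), total counts kept 151, the block kept 161, and leaving out libraries kept 530 of 710. The direction turned at Gm28888 after 24 h of OCT4 depletion, from −1.29 to 0.01 without OCT4-FKBP NT replicate 2 (range over single libraries −2.50 to 0.01). Leaving out the 3 shallow NANOG-FKBP libraries, chosen after seeing the data, kept every count within 1.5 times (OCT4 60 and 56, then 198 and 280, and 26 and 62 that differed).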

Other observations

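Calls at further named lncRNA promoters differed between lines. Ppp2r2cos, named for the strand opposite Ppp2r2c, had 26.0 and 29.7 normalized counts in SOX2-FKBP NT cells and 5.8 and 6.6 at 24 h (−2.12, adjusted p = 0.000231). It was gained at 2 h of OCT4 depletion (1.23), and the SOX2 response was lower than the OCT4 response by the interaction test at 2 h (adjusted p = 0.0312) and 24 h (−2.28, SE 0.63, adjusted p = 0.0364). Gm34533 was lost at 24 h of OCT4 depletion (−3.49), whereas in SOX2-FKBP cells it held 14.8 and 25.5 counts in NT and 5.8 and 10.4 at 24 h (−1.22, adjusted p = 0.0741), and this difference did not pass the test (2.30, SE 0.69, adjusted p = 0.0622). At Gm14820 the difference between the lines was 1.12 (SE 0.56, adjusted p = 0.362) at 24 h, and at Lncbate1 1.21 (SE 0.56, adjusted p = 0.301).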
